A study of Mus musculus with 8 samples.

Results

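The transcripts of 10 genes that drive mitosis and guard chromosome segregation were followed in tumor cells of MMTV-PyMT mice. They encode the kinases Cdk1, Plk1, Aurka, Aurkb, Nek2, Bub1 and Ttk, the checkpoint protein Bub1b and the chromosomal passenger subunit Birc5. The last is Cdc20, the protein on which the spindle checkpoint acts. The genes were chosen by name, for their roles in mitosis and with earlier results of these data known, and are 10 of the 53697 genes in the count table. All 10 passed edgeR's filter for low expression, as did 18322 genes of the table.

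MMTV-PyMT mice express the polyoma middle T oncogene from a mammary tumor virus promoter active in mammary epithelium, and every mouse here carried it, on a C57BL/6 background. A pair of mice, PyMT-Dll1GFP, also carried a GFP-IRES-CreERT2 cassette knocked into Dll1, which encodes a Notch ligand. The other pair, PyMT-Dll1mCh, carried mCherry in a BAC with the Dll1 regulatory region. Tumors were dissociated, cells with CD45, CD31 or Ter119 on their surface were removed, and the remaining cells were sorted on the reporter into Dll1+ and Dll1- populations. Each of the 4 mice gave 1 library of each population, so the 8 libraries form 4 pairs. The ages of these mice are not given in the sources used here. With 2 mice a reporter line, the line cannot be told apart from the mice or from anything handled with them.

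Cdk1 with B-type cyclins starts mitosis, and Aurora and Polo-like kinases then mature the centrosomes, build the spindle and correct faulty attachments of kinetochores. Ttk, Bub1 and Bub1b signal from unattached kinetochores and keep Cdc20 from activating the anaphase-promoting complex (APC/C), a ubiquitin ligase that ends mitosis. These genes are transcribed mainly in G2 and M phase, so that their RNA is commonly read as a sign of dividing cells. In a bulk library, fewer dividing cells and less RNA per dividing cell cannot be told apart.

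The deposited values are estimated counts, and levels are given as CPM (counts scaled to a library of 1000000) after TMM normalization. Total counts were 27301396 to 123907626 per library, and the deepest was the Dll1- library of PyMT-Dll1mCh mouse 1. Dll1, the gene behind both reporters, was at 7.61 and 13.7 CPM in the Dll1- and at 87.5 and 138 CPM in the Dll1+ libraries of the PyMT-Dll1GFP mice, and at 34.8 and 50.3 against 204 and 250 CPM in the PyMT-Dll1mCh mice. The sorted populations differed in Dll1 as labelled. The 6 epithelial markers summed to 4524 to 8295 CPM in the 8 libraries, but other cell types were not equally rare: 6 fibroblast markers summed to 685 to 796 CPM in the PyMT-Dll1GFP libraries, 4965 and 13100 CPM in the Dll1- and 2169 and 2227 CPM in the Dll1+ libraries of the PyMT-Dll1mCh mice.

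The first question was whether Dll1+ cells differed from Dll1- cells of the same mouse in these transcripts. In every mouse all 10 were lower in the Dll1+ than in the Dll1- library, at between 27.2% and 69.4% of the Dll1- level. Over the 4 mice the fitted log2 fold change ran from -0.97 for Aurkb to -1.46 for Nek2, with a median of -1.16 beside -0.0007 for all genes tested. All 10 passed an adjusted p of 0.05 (edgeR's quasi-likelihood test with the mouse as a block and Benjamini-Hochberg adjustment), whereas 7.04% of all tested genes were called lower.

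Cdk1 (ENSMUSG00000019942.13, chr10:69335146-69352938 of GRCm38), the kinase that carries cells into mitosis, had 32.1 and 36.0 CPM in the Dll1- and 14.9 and 12.97 CPM in the Dll1+ libraries of PyMT-Dll1GFP mice 1 and 2. In PyMT-Dll1mCh mice 1 and 2 it had 67.4 and 61.8 against 30.0 and 33.8 CPM. The Dll1+ libraries were thus lower within each reporter, but those of the PyMT-Dll1mCh mice reached the Dll1- level of the PyMT-Dll1GFP mice. Over the 4 mice Cdk1 fell by 1.15 ± 0.10 (SE) on the log2 scale (adjusted p = 0.00586).

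Plk1 (ENSMUSG00000030867.7, chr7:122159439-122169873), the Polo-like kinase of centrosome maturation and mitotic entry, had 20.1 and 21.1 CPM in the Dll1- and 6.38 and 7.34 CPM in the Dll1+ libraries of the PyMT-Dll1GFP mice, and 40.9 and 30.9 against 15.1 and 13.6 CPM in the PyMT-Dll1mCh mice. Every Dll1+ library was below every Dll1- library. Plk1 fell by 1.45 ± 0.10 (adjusted p = 0.00534). An annotated gene on the opposite strand, Gm44985, overlaps it. The kit kept strand, but the strand setting of the counting is not given in the sources used here.

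Aurka (ENSMUSG00000027496.15, chr2:172356190-172370535), the Aurora kinase of spindle poles, had 14.0 and 11.5 CPM in the Dll1- and 6.21 and 5.03 CPM in the Dll1+ libraries of the PyMT-Dll1GFP mice, and 31.6 and 23.3 against 14.3 and 11.2 CPM in the PyMT-Dll1mCh mice. It fell by 1.14 ± 0.08 (adjusted p = 0.00534), and its fall was the most even of the set, to between 43.6% and 48.1% of the Dll1- level in the 4 mice. Nek2 (ENSMUSG00000026622.15, chr1:191821444-191833050), a NIMA-family kinase that splits the centrosome pair, had 18.5 and 17.8 against 6.56 and 4.83 CPM in the PyMT-Dll1GFP mice and 30.8 and 23.0 against 10.9 and 11.7 CPM in the PyMT-Dll1mCh mice. Nek2 showed the lowest single ratio, 27.2% in PyMT-Dll1GFP mouse 2, and no overlap between the 4 Dll1+ and the 4 Dll1- libraries. It fell by 1.46 ± 0.15 (adjusted p = 0.00679). Gm38037 overlaps Nek2 on the opposite strand.

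Aurkb and Birc5 encode the kinase and a targeting subunit of the chromosomal passenger complex, which works at centromeres and the spindle midzone. Aurkb (ENSMUSG00000020897.12, chr11:69045647-69051664) had 16.7 and 20.4 against 8.86 and 10.1 CPM in the PyMT-Dll1GFP mice and 32.8 and 38.0 against 14.2 and 22.5 CPM in the PyMT-Dll1mCh mice. Birc5 (ENSMUSG00000017716.15, chr11:117849251-117855743) had 22.9 and 22.5 against 9.35 and 11.3 CPM and 52.9 and 46.2 against 22.8 and 27.1 CPM. For both genes the ranges of the 4 Dll1+ and the 4 Dll1- libraries overlapped, because Dll1+ cells of the PyMT-Dll1mCh mice were at the level of Dll1- cells of the PyMT-Dll1GFP mice. Within the mouse, Aurkb fell by 0.97 ± 0.09 and Birc5 by 1.06 ± 0.10 (adjusted p = 0.00633 for both).

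Of Bub1b, Bub1 and Ttk, which signal in the checkpoint, Bub1b (ENSMUSG00000040084.9, chr2:118598211-118641591) had the highest CPM. It encodes BubR1 of the mitotic checkpoint complex. Bub1b had 34.3 and 33.0 against 11.3 and 10.8 CPM in the PyMT-Dll1GFP mice and 59.0 and 45.7 against 24.9 and 24.4 CPM in the PyMT-Dll1mCh mice. Bub1 (ENSMUSG00000027379.13, chr2:127801122-127831865), a kinase that recruits the other checkpoint proteins to kinetochores, had 14.1 and 14.0 against 5.68 and 5.30 CPM and 26.0 and 20.9 against 13.0 and 14.5 CPM. Ttk (ENSMUSG00000038379.15, chr9:83834689-83872389), or Mps1, the kinase at the head of the checkpoint signal, had 9.21 and 10.9 against 3.38 and 3.47 CPM and 14.7 and 12.0 against 6.99 and 8.17 CPM. In PyMT-Dll1mCh mouse 2, Bub1, Ttk and Bub1b were at 69.4%, 67.9% and 53.4% of their Dll1- level. In the other mice Bub1 and Ttk were at 31.8% to 50.1% and Bub1b at 32.8% to 42.2%, and the other members were likewise least reduced in that mouse. Over the 4 mice Bub1b fell by 1.33 ± 0.13 (adjusted p = 0.00671), Bub1 by 1.05 ± 0.16 (adjusted p = 0.0149) and Ttk by 1.17 ± 0.20 (adjusted p = 0.0186). Leaving out PyMT-Dll1GFP mouse 1, PyMT-Dll1GFP mouse 2 or PyMT-Dll1mCh mouse 1 took Bub1 and Ttk out of the calls, with adjusted p between 0.0513 and 0.0841. These fits called 2.25%, 4.16% and 2.28% of all genes in either direction, against 14.0% over the 4 mice.

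Cdc20 (ENSMUSG00000006398.15, chr4:118432901-118437352), the APC/C activator held back by the checkpoint, had 36.2 and 36.8 against 13.4 and 13.1 CPM in the PyMT-Dll1GFP mice and 93.7 and 63.7 against 34.3 and 32.8 CPM in the PyMT-Dll1mCh mice. It fell by 1.33 ± 0.11 (adjusted p = 0.00534), and all Dll1+ libraries were below all Dll1- libraries. Elovl1 overlaps Cdc20 on the opposite strand. Plk1, Bub1b, Ttk, Nek2 and Cdc20 were the 5 of 10 members with no overlap between the 4 Dll1+ and the 4 Dll1- libraries, which was so, in this direction, for 3.33% of all tested genes.

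**Figure D1:**
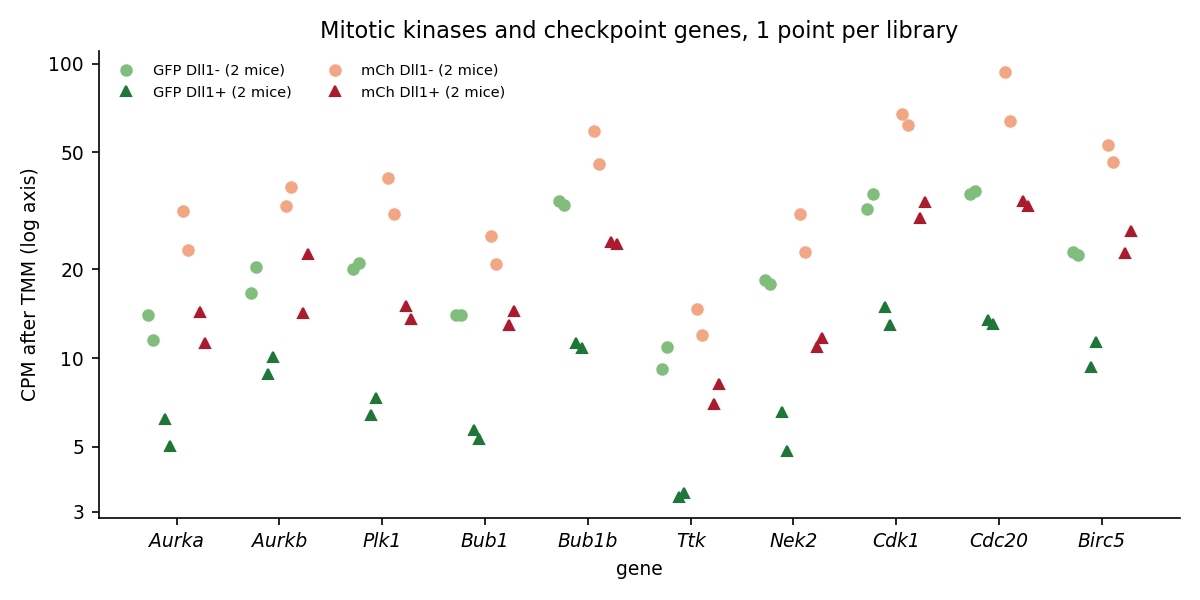
CPM after TMM scaling (log axis) of each of the 10 genes in the 8 libraries, with circles for Dll1- and triangles for Dll1+ cells, green for PyMT-Dll1GFP and orange to red for PyMT-Dll1mCh mice, 1 point per library. Within each reporter the Dll1+ points lie below the Dll1- points for every gene, and the PyMT-Dll1mCh points lie above the PyMT-Dll1GFP points of the same population.

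The promoters of G2/M genes are known to carry a CHR element, bound by MuvB complexes with B-Myb and FoxM1, and CCAAT boxes, bound by NF-Y. Since the 10 genes moved together, their RefSeq promoter windows (GRCm38.p6, 250 bases before to 50 after the start of the gene) were searched on both strands for TTTGAA, its reverse complement TTCAAA and the palindromic variant TTCGAA as forms of the CHR, and for CCAAT or its complement ATTGG, and 9 members had a window. CCAAT was found in 8 of the 9 and a CHR form in 7 of the 9, against 37.4% and 19.2% of all 32851 windows, and 6 of the 9 held at least 2 CCAAT boxes against 11.7%. A match is a description of these letters and says nothing of binding. Position -1 is the base before the start and +1 the first base after it. Shown are the 100 bases before the start, 5′ to 3′ on the strand of the gene with the elements in capitals, of Cdc20 and Cdk1, which hold both elements within them, of Aurka and Ttk, which hold a pair of CCAAT boxes, and of Birc5, whose window held neither element.
Cdc20, chr4:118437344-118437443, minus strand: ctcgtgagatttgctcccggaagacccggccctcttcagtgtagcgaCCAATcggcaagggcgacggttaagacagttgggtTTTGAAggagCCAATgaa
Cdk1, chr10:69352913-69353012, minus strand: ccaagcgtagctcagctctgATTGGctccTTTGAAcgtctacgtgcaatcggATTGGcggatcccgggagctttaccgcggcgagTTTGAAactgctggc
Aurka, chr2:172370571-172370670, minus strand: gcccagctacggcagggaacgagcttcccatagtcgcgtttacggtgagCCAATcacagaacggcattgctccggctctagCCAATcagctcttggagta
Ttk, chr9:83834589-83834688, plus strand: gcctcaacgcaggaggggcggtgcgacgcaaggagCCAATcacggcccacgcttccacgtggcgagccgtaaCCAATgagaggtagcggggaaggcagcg
Birc5, chr11:117849137-117849236, plus strand: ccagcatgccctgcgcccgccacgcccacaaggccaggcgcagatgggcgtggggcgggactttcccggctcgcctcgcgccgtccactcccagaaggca

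In Cdc20 and Cdk1 a CHR form began 18 and 15 bases before the start, and Cdk1 held another at -71. In 5 members a CHR form lay past the start, and it is shown with its closest neighbors, the CHR form in capitals.
Aurka, chr2:172370526-172370545, minus strand: gagaaccTTTGAAttgtaac
Plk1, chr7:122159458-122159477, plus strand: cgccgcgTTTGAAttcgggg
Bub1, chr2:127831833-127831852, minus strand: cggggaaTTCGAAtcgccgg
Bub1b, chr2:118598244-118598260, plus strand: cgttaaaTTTGAAactt
Ttk, chr9:83834689-83834708, plus strand: gggaaatTTCAAAcgtgttt
These began at +33 in Aurka, +31 in Plk1, +15 in Bub1, +41 in Bub1b and +8 in Ttk. Bub1b also held a CHR form at -188 and ATTGG at -113, before the bases shown here for the other genes. The CCAAT boxes nearest to each other began 26 bases apart in Bub1, 32 in Aurka and Cdk1, 33 in Nek2, 37 in Ttk and 45 in Cdc20. Nek2 held CCAAT at -26 and +8 and no CHR form. Birc5, whose window held neither motif, fell with the rest.

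The comparison was then made in each reporter, in the same fit of all 8 libraries with a shared estimate of the spread. The calls in the reporters are therefore not independent of each other. In the PyMT-Dll1GFP mice the 10 genes fell by 0.96 (Aurkb) to 1.69 (Nek2) on the log2 scale, and all 10 were called lower, beside 4.84% of tested genes. In the PyMT-Dll1mCh mice they fell by 0.77 (Bub1) to 1.32 (Plk1), and all 10 were again called lower, beside 6.25% of tested genes. In both reporters the Dll1+ and Dll1- libraries of each gene did not overlap, but this was so, in this direction, for 29.2% and 22.0% of tested genes with 2 libraries against 2.

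The calls in the PyMT-Dll1GFP mice needed both mice: with either left out, none of the 10 was called, with adjusted p between 0.0596 and 0.169, and 0.104% and 0.0107% of all genes were. In the PyMT-Dll1mCh mice Bub1 and Ttk lost their call without PyMT-Dll1GFP mouse 1, PyMT-Dll1GFP mouse 2 or PyMT-Dll1mCh mouse 1 (adjusted p 0.0595 to 0.201), in fits that called 4.84% to 7.41% of all genes, and none was called when this reporter was fitted alone (adjusted p 0.0591 to 0.0893), a fit that called 0 of 19945 genes and gave 5512 with an unadjusted p under 0.05. Without the mouse as a block, 8 and 6 of the 10 were called, beside 274 and 212 of 18322 tested genes. All these fits kept the fall of every gene.

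The cells other than tumor epithelium were not matched between the populations of the PyMT-Dll1mCh mice. There, 5 of 5 tested immune, 1 of 5 endothelial, 3 of 6 fibroblast, 3 of 4 pericyte and 2 of 2 tested red-cell markers were called lower in Dll1+ cells. In the PyMT-Dll1GFP mice none of these markers was called in either direction, beside 9.13% of tested genes. For 9 of the 10 genes the fitted fall was larger in size in the PyMT-Dll1GFP than in the PyMT-Dll1mCh mice, the exception being Aurkb at -0.96 against -0.98. Of the 6 epithelial markers, the basal keratin gene Krt5 alone was called over the 4 mice, higher in Dll1+ cells at 2.77 (adjusted p = 0.00730). The part of these shifts in the fall of the 10 genes was not tested.

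Mouse by mouse, the median log2 difference of the 10 genes was -1.36 and -1.48 in PyMT-Dll1GFP mice 1 and 2 and -1.21 and -0.89 in PyMT-Dll1mCh mice 1 and 2. The smallest difference of each gene was that of PyMT-Dll1mCh mouse 2. The effect in PyMT-Dll1mCh minus that in PyMT-Dll1GFP mice was above 0 for 9 of the 10 genes, but none passed the threshold, and 0.0710% of tested genes did. It was largest for Ttk (0.73, 95% interval 0.11 to 1.35, adjusted p = 0.307), Bub1 (0.59, 0.08 to 1.10, adjusted p = 0.316) and Bub1b (0.53, 0.15 to 0.91, adjusted p = 0.252). At an unadjusted p under 0.05, 3 of the 10 would pass, as would 13.2% of tested genes. For Aurkb the difference was -0.02 with an interval of -0.48 to 0.45, which leaves room for an unequal effect in either direction.

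**Figure D2:**
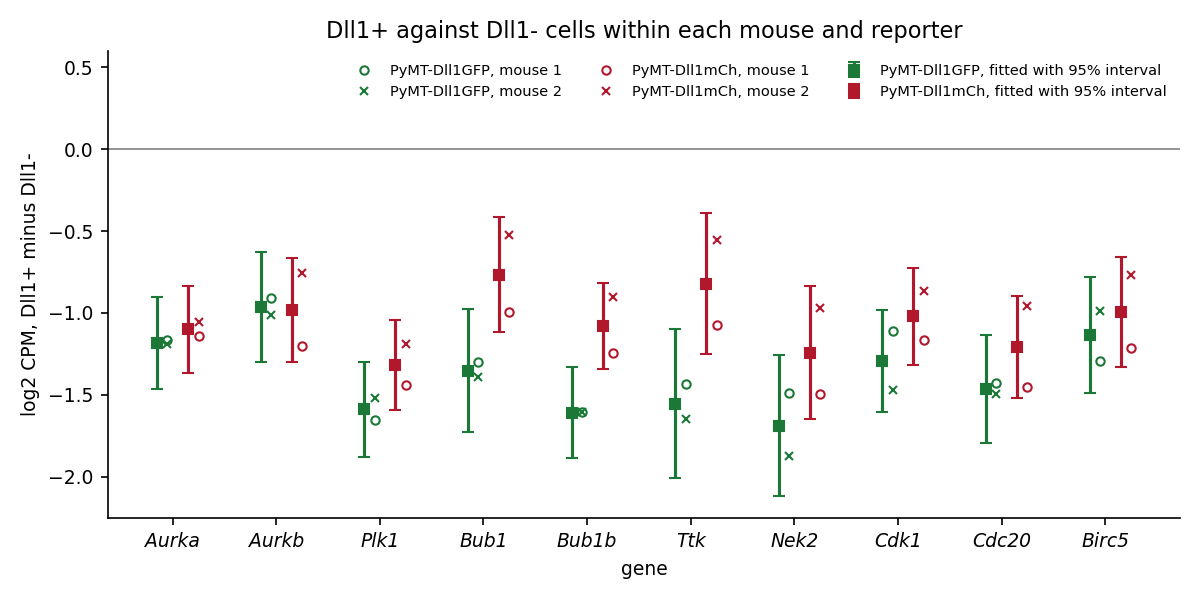
Log2 CPM in Dll1+ minus Dll1- cells (y axis) for each of the 10 genes. Squares and bars are fitted values with 95% intervals for each reporter, and open circles and crosses are mouse 1 and mouse 2. All values lie below 0, and the cross of PyMT-Dll1mCh mouse 2 is the highest of the 4 mice for every gene, at up to -0.53 for Bub1.

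The rest of the mitotic machinery was followed in 10 lists of genes that work with these kinases, given as counts over the 4 mice with the median log2 fold change. Of all tested genes, 7.04% were called lower and 6.98% higher.

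At the kinetochore, 9 of 13 other checkpoint genes were lower and none higher, with a median of -0.73. The largest fall was that of Cenpe, the kinetochore motor that activates Bub1b, at -1.11, and Kntc1, a subunit of the complex that recruits Mad proteins, fell by 0.96 (adjusted p = 0.00917). Ndc80 of the microtubule-binding complex fell by 0.98 and Mad2l1, which binds Cdc20, by 0.91. Zw10, Spdl1, Mad2l1bp and Mis12 did not pass, at -0.13, -0.33, 0.06 and -0.14. Of the partners of Aurkb and Birc5 and the guardians of centromere cohesion, 6 of the 8 tested were lower and none higher (median -0.76), with Cdca8 (borealin) at -1.17, Cdca5 (sororin) at -0.99 and Incenp, the scaffold of the passenger complex, at -0.75. Bod1 and Pds5b did not pass, and Aurkc was not tested for its low counts.

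Around Cdc20, the APC/C list had a median of -0.07, and 6 of its 18 genes were lower and none higher. Ube2c, the E2 enzyme of the APC/C, at -1.22, and the inhibitor Fbxo5, at -0.71, had the largest changes. The other 4 called genes, the subunits Anapc5 and Anapc1, the second activator Fzr1 and the E2 enzyme Ube2s, fell by 0.20 to 0.30. Among the partners of Cdk1, the cyclins Ccnb2, Ccna2 and Ccnb1 fell by 1.40, 1.36 and 1.33, and the activating phosphatases Cdc25a, Cdc25b and Cdc25c by 0.71, 0.92 and 1.11, while the Cdk-activating kinase genes Cdk7, Ccnh and Mnat1 did not pass, at -0.06, -0.06 and -0.02. In this list 8 of 16 genes were lower (median -0.55), and 1 was higher. The kinases that inhibit Cdk1 split, with Wee1 higher at 0.44 (adjusted p = 0.0336) and Pkmyt1 lower at -0.43 (adjusted p = 0.0192).

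Of 18 partners of Aurka and Plk1 and motors of the spindle, 15 were lower and none higher, with a median of -0.97. Tpx2, the activator of Aurka, fell by 1.29, the minus-end motor Kifc1 by 0.96 and Racgap1, the central-spindle GTPase-activating protein, by 0.85 (adjusted p = 0.00579). Kif18a, Ckap5 and Numa1 did not pass. Sister separation and condensation had 10 of 13 genes lower and none higher (median -0.60), with separase (Espl1) at -1.23, Ncaph at -1.0007, Top2a at -0.90 and Smc2 at -0.79, while of the cohesin genes Smc1a and Smc3 fell by 0.26 and 0.29 and Rad21, Stag1 and Stag2 did not pass.

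Most paralogs of the kinases were not called. Of 10 tested Polo, Aurora and NIMA paralogs (median 0.02), Plk4, which starts centriole duplication, fell by 0.83 (adjusted p = 0.0117), and Plk3, a stress-response Polo kinase, rose by 0.60 (adjusted p = 0.0155). Plk2 was at -0.10 (adjusted p = 0.566), and Nek4, the next by p, at 0.22 (adjusted p = 0.0734). None of the other 6 NIMA kinases tested passed. Of 9 other kinases of mitosis, of which Haspin and Mastl are also in the lists above, 5 were lower (median -0.39), among them Melk at -1.22, Pbk at -1.11 and Mastl, the kinase that holds off PP2A, at -0.88, and 1 was higher, Tlk2, at 0.28.

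Of 14 genes listed for transcription factors of mitotic genes and their complexes (MuvB, B-Myb, FoxM1 and NF-Y), 4 were lower and none higher (median -0.17). Mybl2 (B-Myb) fell by 1.11 and Foxm1 by 1.10 (adjusted p = 0.00534 for both), Tfdp1 by 0.67 and Rbl1 by 0.41. The MuvB subunits Lin9, Lin37, Lin52, Lin54 and Rbbp4 and the NF-Y subunits Nfya, Nfyb and Nfyc did not pass, with values between -0.36 and 0.10. Mki67 and 7 replication genes set beside them were all lower (median -0.9997), with Mki67 at -1.35 and the helicase genes Mcm2, Mcm4 and Mcm6 at -1.05, -0.86 and -0.97.

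**Figure D3:**
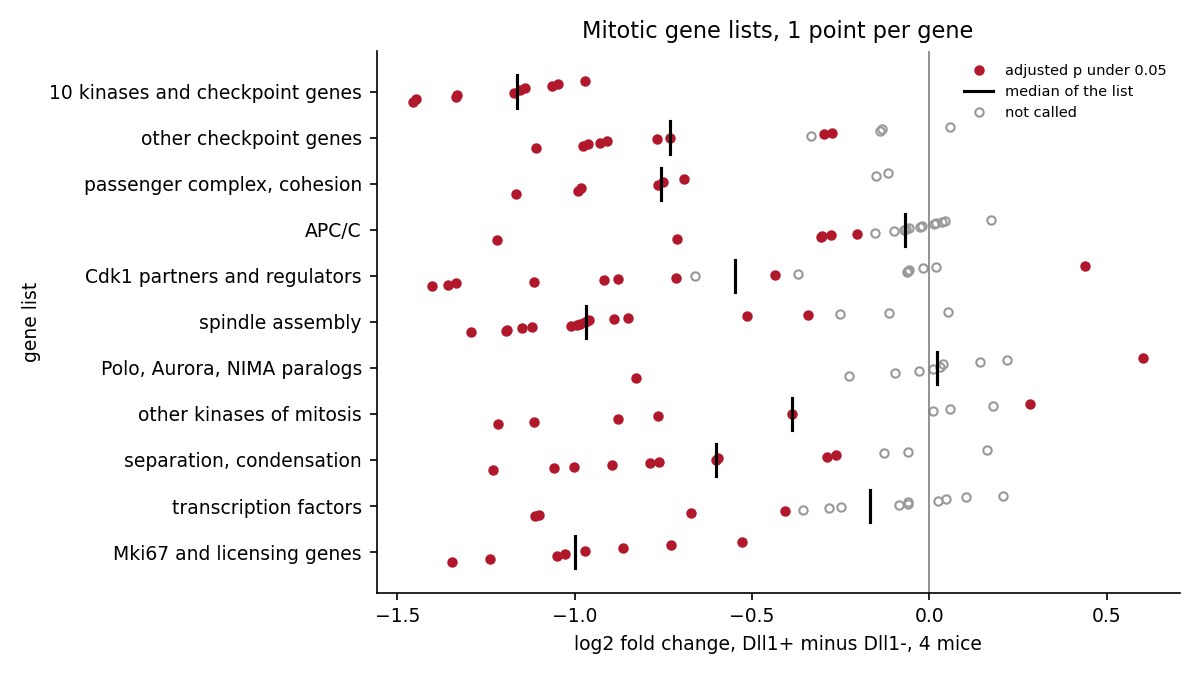
Log2 fold change in Dll1+ minus Dll1- cells over the 4 mice (x axis) of each tested gene in the lists (y axis), with filled points for an adjusted p under 0.05, open points otherwise and a black bar for the median of the list. The 10 kinases and checkpoint genes lie between -1.46 and -0.97, whereas the APC/C and paralog lists center near 0, with medians of -0.07 and 0.02.

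The 10 genes varied together over the 8 libraries. The correlation of each with the mean standardized level of the other 9 (Pearson's r of log2 CPM over 8 libraries that fall into 4 groups, a description only) was 0.94 for Aurkb, the lowest, to 0.99 for Cdk1. Outside the set, the 10 genes with the highest r to the mean of all members were Nuf2, Aunip, Incenp, Mcm5, Cdca8, Cdc45, Fen1, Kif20a, Tacc3 and Smpdl3b, with r between 0.993 and 0.999. Nuf2 is a kinetochore partner of Ndc80, Aunip binds Aurka, and Incenp and Cdca8 are subunits of the complex of Aurkb. Mcm5, Cdc45 and Fen1 act in DNA replication. Kif20a and Tacc3 are in the list of spindle partners, and Smpdl3b, like Nuf2, Aunip, Cdc45 and Fen1, is in none of the lists.

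Per kilobase of exon, Cdc20 stood highest, with a mean of 21.7 CPM per kb over the 8 libraries (6.99 to 50.2), above Plk1 at 8.83 in all 8 libraries. Plk1 in turn exceeded Birc5 in 7. Birc5 (7.90), Cdk1 (7.32), Bub1b (7.11), Aurkb (6.94) and Aurka (5.79) followed, and no neighbors among Birc5, Cdk1, Bub1b, Aurkb and Aurka kept their order in more than 6 of 8 libraries. Aurka exceeded Nek2 (3.43) in all 8 libraries, Nek2 exceeded Bub1 (3.26) in 5, and Bub1 exceeded Ttk (1.75), the lowest, in all 8. These levels divide by the union of annotated exons. With the longest transcript as the length, Aurkb moved from rank 6 to rank 2, at 10.5 CPM per kb, and Cdc20 and Ttk stayed highest and lowest, at 22.6 and 2.999.

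The last question was how the reporter lines differed. In Dll1- cells, PyMT-Dll1mCh tumors had higher levels of the 10 genes than PyMT-Dll1GFP tumors, with log2 fold changes of 0.41 (Ttk) to 1.13 (Birc5) and a median of 0.86 beside 0.01 for all genes. The test called 8 of the 10 higher, where 18.7% of all genes were called higher. Birc5, Cdc20 and Aurka led, at 1.13 ± 0.15 (adjusted p = 0.00268), 1.11 ± 0.18 (adjusted p = 0.00462) and 1.11 ± 0.22 (adjusted p = 0.00966). Nek2, at 0.57 ± 0.20 (adjusted p = 0.0603), and Ttk, at 0.41 ± 0.19 (adjusted p = 0.125), did not pass. In Dll1+ cells the difference was 0.95 (Aurkb) to 1.34 (Cdc20), with a median of 1.17 beside 0.07, and all 10 were called higher, where 15.2% of all genes were. The PyMT-Dll1mCh and PyMT-Dll1GFP libraries of a population did not overlap for any of the 10 genes, as was so, in this direction, for 35.7% of all genes in Dll1- and 36.8% in Dll1+ cells. The populations compared came from the same mice, in separate libraries.

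Leaving out a PyMT-Dll1GFP library weighed on these calls. In Dll1- cells, 4 of the 10 were called without mouse 1 and 3 without mouse 2, and in Dll1+ cells 6 were called without either. In Dll1- cells these fits called 2696 of 19252 and 3070 of 19227 tested genes in either direction, against 36.6% with all libraries, and in Dll1+ cells 7.33% and 5.98%, against 30.6%. Without a PyMT-Dll1mCh library 8 were called in each population, in fits that called 16.5% to 30.3% of all genes. No such fit turned the direction of a gene.

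Other properties moved with the reporter line. Over all genes, the difference in Dll1- cells had a median of 0.27 in the fifth of genes with the shortest transcripts and -0.36 in the fifth with the longest, and of -0.38 in the fifth with the lowest and 0.29 in the fifth with the highest GC content. In Dll1+ cells the medians were 0.43 and -0.31 by length and -0.30 and 0.34 by GC. The longest transcripts of the 10 genes span 1793 bases (Cdc20) to 4375 bases (Cdk1), with a GC content of 41.0% (Bub1) to 56.0% (Plk1). Offsets for length and GC were then put in the model, a choice made after seeing this trend. With them, 7 of the 10 were called higher in Dll1- and 9 in Dll1+ cells. All 10 stayed above 0 in both populations, the lowest at 0.40 and 0.65. The share of all genes called with the offsets is not given here. Plk1 went from 0.80 to 0.40 in Dll1- cells, where it lost its call (adjusted p = 0.0659), and from 1.06 to 0.65 in Dll1+ cells, and Cdc20 from 1.11 to 0.71 and from 1.34 to 0.93. Aurkb lost its call in both populations (0.65 and 0.66, adjusted p = 0.101 and 0.112), whereas Ttk gained one in Dll1- cells at 0.61 (adjusted p = 0.0460), and Bub1 rose from 0.74 to 0.95 and from 1.32 to 1.48. The Dll1+ effect over the 4 mice kept its 10 calls with the same offsets.

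**Figure D4:**
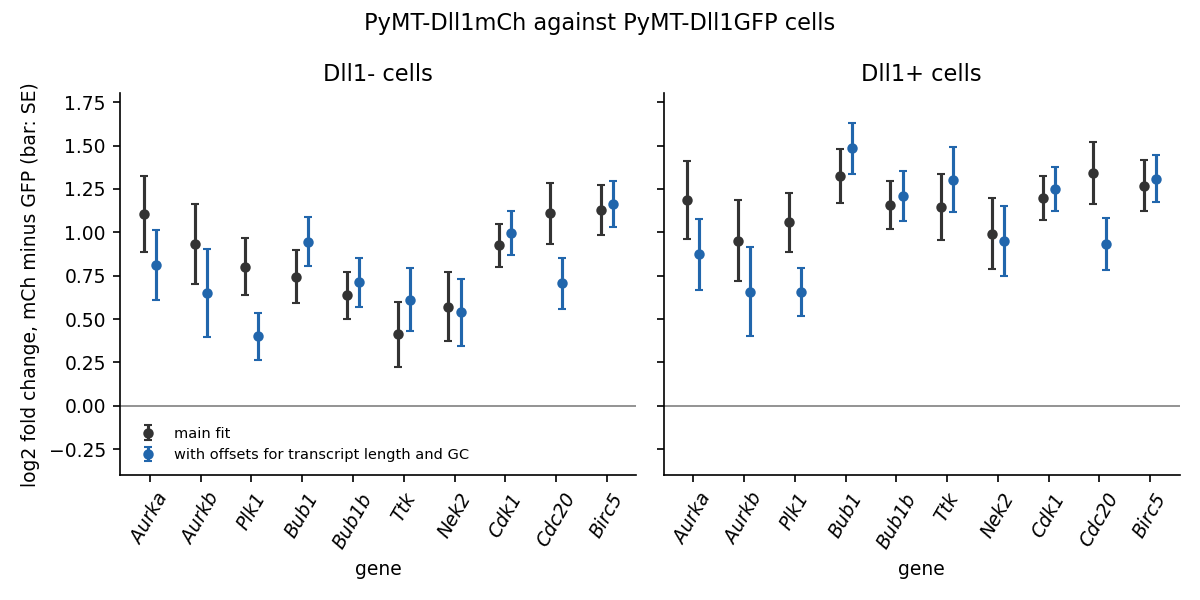
Log2 fold change of PyMT-Dll1mCh minus PyMT-Dll1GFP cells (y axis, bars SE) for the 10 genes, in Dll1- cells on the left and Dll1+ cells on the right, from the model without (black) and with (blue) offsets for transcript length and GC content. All points lie above 0. Plk1 drops from 0.80 to 0.40 in Dll1- cells with the offsets.

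Mki67, the transcript of the Ki-67 antigen of cycling cells, is set beside the 10 genes here. It had 191 and 189 CPM in the Dll1- and 59.3 and 58.2 CPM in the Dll1+ libraries of the PyMT-Dll1GFP mice, and 202 and 153 against 89.6 and 86.3 CPM in the PyMT-Dll1mCh mice. The Dll1- libraries of the lines overlapped, at a log2 fold change of -0.10 ± 0.14 (adjusted p = 0.598). Without PyMT-Dll1mCh mouse 1 or 2 it was -0.33 or 0.13, so its direction turned. In Dll1+ cells Mki67 was higher in PyMT-Dll1mCh mice, at 0.58 ± 0.14 (adjusted p = 0.0212), a call lost with any of the 4 libraries left out (adjusted p 0.0614 to 0.117). Its transcript has 10061 bases, and with the offsets its values were 0.33 (adjusted p = 0.195) and 0.98 (adjusted p = 0.0144), beside medians of 0.71 and 1.08 for the 10 genes. The summed CPM of the 10 genes was 218 and 224 in Dll1- and 86.0 and 84.2 in Dll1+ cells of the PyMT-Dll1GFP mice, and 450 and 365 against 186 and 200 in the PyMT-Dll1mCh mice.

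Between the lines, in the fit without the offsets, each of the 10 lists followed above had a smaller median than the 10 genes. The marker lists are not part of this ranking, and the lists were not compared with the offsets. In Dll1- and Dll1+ cells the median was 0.69 and 0.74 for Mki67 and the replication genes (5 and 6 of 8 called higher), 0.57 and 0.76 for the passenger complex and cohesion genes (5 and 6 of 8 higher, 1 and 1 lower), 0.44 and 0.89 for the spindle partners (8 and 12 of 18 called higher, 2 and 2 lower), 0.40 and 0.59 for the Cdk1 partners (9 and 9 of 16 higher) and 0.22 and 0.31 for the other checkpoint genes (4 and 5 of 13 higher). Ube2c was at 1.29 and 1.67 and Ccnb2 at 1.19 and 1.63. The Polo, Aurora and NIMA paralogs had medians of -0.29 and -0.14, with 2 and 3 of 10 called lower, beside 17.9% and 15.4% of all genes, and 0 and 1 higher.

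Markers of other cells were also higher in the PyMT-Dll1mCh libraries. In Dll1- cells, 5 of 5 tested immune, 5 of 5 endothelial, 6 of 6 fibroblast and 3 of 4 pericyte markers were called higher, with medians of 2.39, 3.50 and 4.08 in the last 3 of these lists. In Dll1+ cells it was 3, 1, 4 and 3 of them, with medians of 0.79, 1.56 and 1.73. The fourth pericyte marker, Notch3, was called lower there, at -0.60 (adjusted p = 0.00859). The 6 immune markers summed to 61.5 to 82.4 CPM in the PyMT-Dll1GFP libraries, 324 and 360.4 CPM in the Dll1- and 147 and 163 CPM in the Dll1+ libraries of the PyMT-Dll1mCh mice. None of these markers was at 0 in all libraries of a group. In the Dll1- libraries of PyMT-Dll1mCh mice 1 and 2 the fibroblast sum was 4965 and 13100 CPM, and the summed 10 genes were 450 and 365 CPM. The part of these cells in the levels of the 10 genes was not tested.

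**Figure D5:**
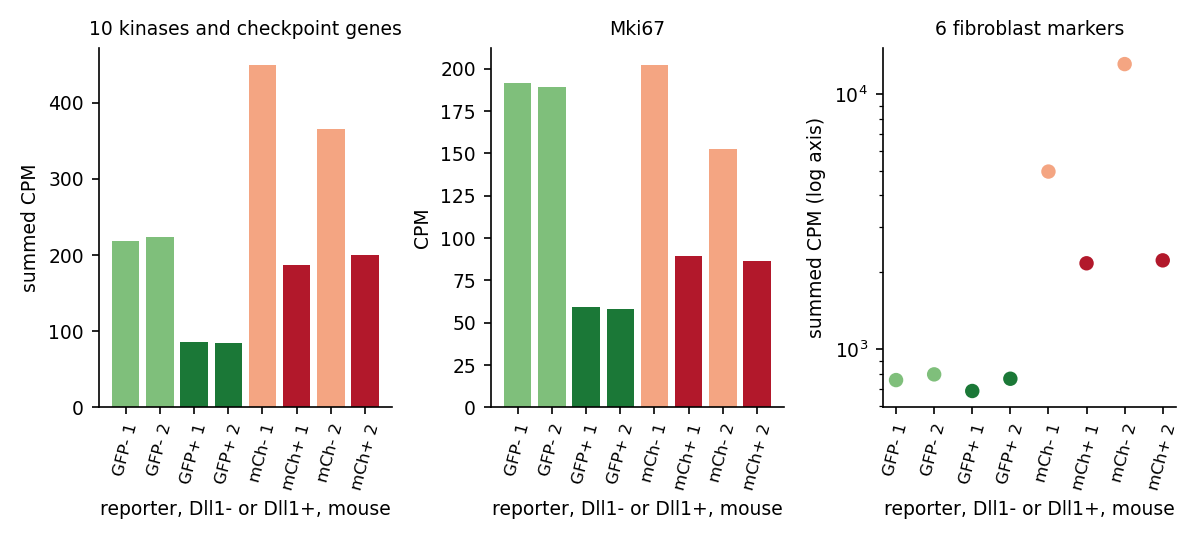
Summed CPM of the 10 genes (left, bars from 0), CPM of Mki67 (center, bars from 0) and summed CPM of 6 fibroblast markers (right, points on a log axis) in each of the 8 libraries, labelled by reporter, Dll1- or Dll1+ population (- or +) and mouse. The 10 genes reach 450 and 365 CPM in the PyMT-Dll1mCh Dll1- libraries against 218 and 224 in those of PyMT-Dll1GFP, while Mki67 ranges over 153 to 202 CPM in the 4 Dll1- libraries.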

How the data were processed

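RNA from the 8 sorted populations was sequenced with a stranded TruSeq kit. The authors quantified reads against mouse transcripts (GENCODE M20, GRCm38.p6) with Salmon (version not given in the sources used here) and tximport, and the authors deposited estimated counts per gene, in whole numbers. How transcript length and base composition were handled upstream bears on comparisons between reporter lines. 0 columns were left out.

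Counts were analysed with edgeR 4.0.16 in R 4.3.3: TMM factors, filterByExpr on Dll1+ status, and a robust quasi-likelihood F test, adjusted by Benjamini-Hochberg over 18322 genes (threshold 0.05). The Dll1+ effect was fitted with the mouse as a block, over 4 mice and with an effect for each reporter, leaving 3 and 2 residual degrees of freedom. Both effects per reporter came from the same fit of all 8 libraries and share its estimate of the spread. The pairing comes from the mouse named in the labels. The correlation of the deviations of a mouse's libraries was -0.05 in PyMT-Dll1GFP and 0.55 in PyMT-Dll1mCh mice. Reporter lines were compared in a model of the 4 groups, with 4 residual degrees of freedom. That model holds no mouse term, so the libraries of a mouse count as independent in its spread, though each line has 2 mice. SE is the log2 fold change over the root of F. The scripts were tested on simulated data. Single libraries are given as CPM, and percentages of the Dll1- level are ratios of these. Log2 differences within a mouse and correlations use log2 CPM with a prior count of 2. Gene positions and lengths came from GENCODE M21 and promoters from RefSeq.

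The members and lists were chosen with earlier results of these data known. The genes named are the members, Dll1, Mki67, Plk2, Plk3, Plk4, 3 genes of each list (those of lowest p over the 4 mice) and the 10 most like the members. Other list genes, marker genes and genes overlapping members were named after their values were seen. Alternatives were RLE factors, DESeq2 1.42.0, other filters, no block, fewer libraries, each mouse or library left out, and, added later, offsets for length and GC. 1 gene of the immune marker list is not reported here and was left out of its counts and sums. ATAC-seq data were not analysed here.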

Additional observations from a re-analysis of the deposited data

Results flagged for a closer look

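The difference between the reporters in the Dll1+ effect was tested for the 10 members, the listed genes and the markers. It passed the threshold for 2 of these, both markers of other cell types: Lyz2, a macrophage gene, at -1.25 (PyMT-Dll1mCh minus PyMT-Dll1GFP effect, log2, adjusted p = 0.0357), and Rgs5, a pericyte gene, at -3.10 (adjusted p = 0.0233). Lyz2 did not differ by Dll1 in PyMT-Dll1GFP mice at 0.05 (adjusted p = 0.716) and fell by 1.20 in PyMT-Dll1mCh mice (adjusted p = 0.00701), and for Rgs5 the values were 0.15 (adjusted p = 0.578) and -2.95 (adjusted p = 0.00516). No member passed this test.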

How the results depend on the processing

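Over the 4 mice, all 10 members stayed called lower with RLE factors, DESeq2, either filter, the offsets and no block, and 8 to 10 with a mouse left out. In PyMT-Dll1GFP mice the count was 8 without the block and 0 to 10 with a mouse left out. In PyMT-Dll1mCh mice it was 6 without the block, 0 with that reporter alone and 8 to 10 with a mouse left out. The block comes from the mouse, so the unblocked fits are no paired analysis. For the difference between reporters the count was 0 in every fit, the unblocked one included. Between the lines it was 3 to 8 in Dll1- and 6 to 8 in Dll1+ cells with a library left out.

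No called member changed direction. Differences between reporters near 0 did: Aurkb, at -0.016, went to 0.020 without the block and to -0.276 to 0.18 with a mouse left out (above 0 without PyMT-Dll1GFP mouse 1 or PyMT-Dll1mCh mouse 1), Cdc20 to -0.026 to 0.475 (below 0 without PyMT-Dll1mCh mouse 2) and Birc5 to -0.12 to 0.33 (below 0 without PyMT-Dll1GFP mouse 1 or PyMT-Dll1mCh mouse 2). The cause was not tested. Genes called over the 4 mice numbered 2568, against 1352 without the block, 4291 by DESeq2 and 405 without PyMT-Dll1mCh mouse 1. With 2 mice a line, the tests of the difference had 2 residual degrees of freedom. To these edgeR added degrees of freedom from the spread over all genes, and the intervals use the total. Intervals such as 0.11 to 1.35 for Ttk limit what these tests show. Leaving out a library leaves its group with 1 sample, assumed to vary like the others.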
